A study of Homo sapiens with 12 samples.

Results

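The 10 genes described here encode the NF-κB subunits (*NFKB1*, *NFKB2*, *REL*, *RELA*, *RELB*) and feedback inhibitors and regulators of the pathway (*NFKBIA*, *NFKBIE*, *NFKBIZ*, *TNFAIP3*, *BIRC3*). They were chosen by name, and all 10 were found among the 45416 genes of the deposited RNA-seq table. The cells were U251, an established human glioblastoma line that the labels call wild type or *PD-L1* knockdown. There were 6 groups of 2 libraries. Cells were transfected for 48 h with the siRNA control (siNC) or with either of the siRNAs against *PD-L1* (siPDL1-1 and siPDL1-2), and each was left unstimulated or was stimulated with 100 U/ml IFNγ for 24 h. All groups had therefore received an siRNA, and no untransfected cells were compared. Knockdown was transient and in 1 cell line. The comparisons ask how IFNγ alters these transcripts, and how either *PD-L1* siRNA alters them with and without IFNγ.

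NF-κB is a family of dimeric transcription factors. In resting cells, the inhibitor IκBα (*NFKBIA*) and related proteins hold dimers such as RELA with p50 (from *NFKB1*) in the cytoplasm, and signals from TNF, interleukin-1 and Toll-like receptors activate the IKK complex, which marks the inhibitor for degradation. The freed dimers bind κB sites and activate genes that include *NFKBIA*, *TNFAIP3* and *BIRC3* themselves, so the transcripts of these feedback genes are often read as a measure of NF-κB activity. NF-κB activity has been linked to inflammation, survival and the mesenchymal state in glioblastoma.

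After IFNγ, *NFKBIA*, *NFKBIZ*, *TNFAIP3* and *BIRC3* were lower with siPDL1-2 than with siNC. The bases upstream of these 4 genes are shown because κB sites are known for genes of this kind, with the matches to the κB consensus on either strand in capitals. The sequences are from RefSeq (GRCh38.p14), read 5′ to 3′ on the strand of the gene, and stop before the gene begins in the deposited table. They lie at chr14:35404750-35404999 (minus strand) for *NFKBIA*, chr3:101827740-101827989 (plus) for *NFKBIZ*, chr6:137867009-137867213 (plus) for *TNFAIP3* and chr11:102317234-102317449 (plus) for *BIRC3*.
NFKBIA: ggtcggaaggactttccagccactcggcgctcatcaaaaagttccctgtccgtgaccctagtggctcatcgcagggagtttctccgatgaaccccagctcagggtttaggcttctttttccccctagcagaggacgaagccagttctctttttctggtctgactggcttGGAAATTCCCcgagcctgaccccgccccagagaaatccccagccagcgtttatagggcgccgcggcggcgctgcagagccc
NFKBIZ: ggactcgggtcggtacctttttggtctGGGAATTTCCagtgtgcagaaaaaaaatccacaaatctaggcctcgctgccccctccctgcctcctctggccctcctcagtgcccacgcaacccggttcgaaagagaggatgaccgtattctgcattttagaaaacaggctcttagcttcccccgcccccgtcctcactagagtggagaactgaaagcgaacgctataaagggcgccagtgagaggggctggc
TNFAIP3: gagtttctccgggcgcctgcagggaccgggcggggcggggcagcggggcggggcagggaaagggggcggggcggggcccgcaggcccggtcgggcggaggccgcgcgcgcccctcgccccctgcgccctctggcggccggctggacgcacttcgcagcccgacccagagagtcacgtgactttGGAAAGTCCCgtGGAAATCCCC
BIRC3: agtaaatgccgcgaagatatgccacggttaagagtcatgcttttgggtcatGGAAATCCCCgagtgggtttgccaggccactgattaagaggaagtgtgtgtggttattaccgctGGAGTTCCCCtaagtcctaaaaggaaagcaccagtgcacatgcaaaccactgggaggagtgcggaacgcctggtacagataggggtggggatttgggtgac
The match lies from -81 to -72 relative to the RefSeq start site of *NFKBIA* and from -223 to -214 for *NFKBIZ*. *TNFAIP3* has a pair of matches, from -67 to -58 and from -55 to -46, and so does *BIRC3*, from -199 to -190 and from -135 to -126. RefSeq promoters of 300 bases around the start site were matched for 8 of the 10 genes, all but *RELB* and *NFKBIE*, with 13 start sites in all. The κB consensus was found at 9 of these 13, in 7 of the 8 genes (not in *RELA*), and in 11.3% of all 35116 promoters. TTCNNNGAA, the letters of the STAT-binding GAS element, was found at 1 of the 13 start sites, that of *RELA*, and in 7.66% of all promoters. Both strands were searched, and a match does not show binding.

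Between 17101069 and 55657393 reads were counted on genes per library, so that 1 read was worth 0.0187 to 0.0586 normalized CPM, the depth-scaled read count of the deposited table. The fewest reads on any of the 10 genes in a library were 106, for *BIRC3*, and the most were 4830, for *RELA*. *PD-L1* is listed as *CD274*. After IFNγ, the siNC libraries held 71.2 and 76.0 CPM of this transcript, those of siPDL1-1 held 60.9 and 66.7 CPM, and those of siPDL1-2 held 37.5 and 35.0 CPM. At FDR < 0.01 and fold > 1.5, which is what "called" means in this text, *CD274* was called lower after IFNγ with siPDL1-2 (log2 fold change -1.001, FDR = 2.79e-05 from limma) and not with siPDL1-1 (-0.20, FDR = 0.0604). Without IFNγ, *CD274* was 4.6 and 4.9 CPM with siNC, 2.67 and 2.73 CPM with siPDL1-1 and 3.57 and 3.45 CPM with siPDL1-2. There it was called lower with siPDL1-1 (-0.64, FDR = 1.76e-05) and not with siPDL1-2 (-0.35, FDR = 0.00183), which was below 1.5-fold. *IRF1*, a transcription factor that IFNγ induces, rose by 4.85 on the log2 scale in siNC cells. The IFNγ-stimulated siPDL1-1 libraries stood apart in a list of 22 type I interferon-response genes, whose summed level was 6280 to 6373 CPM in them, against 722 to 748 CPM (siNC) and 778 to 803 CPM (siPDL1-2). Without IFNγ, the sums were 124 to 128 CPM (siNC), 196 CPM (siPDL1-1) and 117 CPM (siPDL1-2). Of 8 glioma and astroglial markers, all but *AQP4* were above 1 CPM in every library, and of 8 leukocyte markers all but *CD68* (28.2 to 80.2 CPM) were below 1 CPM in every library.

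Per kilobase of the canonical transcript, *RELA*, the main activating subunit, had the highest level in unstimulated siNC cells, at 32.4 ± 1.00 CPM per kilobase (mean ± SD, n = 2 libraries). *NFKB2*, the precursor of p52, followed at 20.2 ± 0.286 and *NFKBIA* at 14.6 ± 1.24. *NFKB1*, the precursor of p50, was at 8.07 ± 0.254, *RELB*, the partner of p52 in the non-canonical pathway, at 7.01 ± 0.709, and *NFKBIE*, which encodes IκBε, at 5.40 ± 0.194 CPM per kilobase. *TNFAIP3*, the ubiquitin-editing enzyme A20, was at 3.73 ± 0.275. The lowest levels per kilobase were those of *NFKBIZ*, the nuclear cofactor IκBζ (2.50 ± 0.287), *REL*, the subunit c-Rel (2.44 ± 0.0855), and *BIRC3*, the ubiquitin ligase cIAP2 (0.834 ± 0.112). *NFKBIZ* and *REL* overlapped, and all other neighbours in this order were separated in both libraries. When lengths were taken from the union of annotated exons, the 3 highest and 3 lowest genes kept their ranks and *NFKB1* moved from rank 4 to rank 7.

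**Figure D1:**
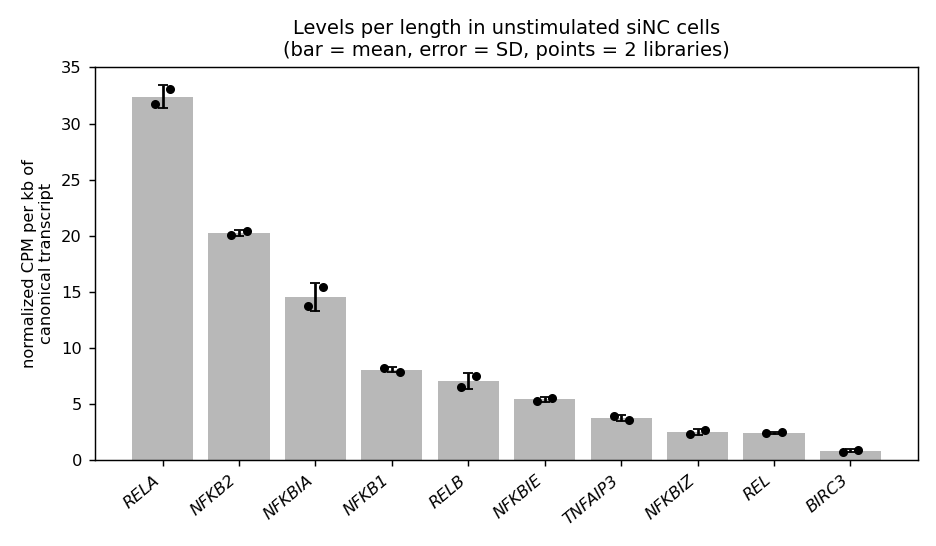
Level of each gene in unstimulated siNC cells, in normalized CPM per kilobase of canonical transcript (y axis). Bars show the mean, error bars the SD and points the 2 libraries. *RELA* (32.4) and *NFKB2* (20.2) are highest and *BIRC3* (0.834) is lowest.

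IFNγ raised 2 of the 10 genes in siNC cells, *NFKBIZ* and *BIRC3*. *BIRC3* went from 5.19 and 6.28 CPM to 13.2 and 13.2 CPM, which limma put at 1.08 on the log2 scale of CPM + 1 (standard error 0.125, FDR = 6.94e-06). *NFKBIZ* went from 9.01 and 10.6 CPM to 18.1 and 18.7 CPM, or 0.85 (standard error 0.091, FDR = 3.16e-06). In both, the stimulated libraries lay well above the unstimulated ones. These 2 of 10 genes compare with 6.67% of the 17982 genes tested that were called higher. In bulk RNA, a larger share of responding cells and more RNA per cell cannot be told apart.

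*NFKBIA* and *TNFAIP3* differed in the same direction by less than 1.5-fold. *NFKBIA* was 21.3 and 24.1 CPM without and 33.7 and 32.4 CPM with IFNγ (log2 fold change 0.52, FDR = 2.61e-05), and without replicate 2 of the unstimulated siNC group it was called, at 0.61. *TNFAIP3* was 18.3 and 16.5 CPM without and 22.9 and 24.0 CPM with IFNγ (0.41, FDR = 6.93e-04). The libraries of either gene did not overlap between the conditions. *REL* was 26.4 and 27.7 CPM without and 35.0 and 32.4 CPM with IFNγ, and its log2 fold change of 0.30 did not pass (FDR = 0.0104). *NFKB1* (33.4 and 32.0 CPM, then 33.6 and 32.3 CPM), *NFKB2* (60.4 and 61.6 CPM, then 61.1 and 55.2 CPM) and *RELA* (79.8 and 83.4 CPM, then 90.5 and 81.1 CPM) overlapped between the conditions. So did *RELB*, at 14.7 and 17.0 CPM, then 14.7 and 12.7 CPM (log2 fold change -0.19, FDR = 0.194). *NFKBIE* lay lower with IFNγ without passing, at 12.3 and 13.0 CPM, then 10.3 and 10.9 CPM (-0.24, FDR = 0.0387). The median log2 fold change over the 10 genes was 0.19, and 0.0012 over all genes tested.

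With siPDL1-1, IFNγ raised *NFKBIZ*, *TNFAIP3* and *BIRC3*. *NFKBIZ* went from 10.5 and 9.98 CPM to 20.8 and 20.4 CPM (log2 fold change 0.94, FDR = 1.06e-06), and *BIRC3* went from 4.35 and 3.44 CPM to 8.48 and 10.4 CPM (1.10, FDR = 6.91e-06). *TNFAIP3* went from 13.7 and 14.7 CPM to 23.6 and 22.7 CPM (0.67, FDR = 8.32e-06). Of all genes tested, 5.58% were called higher. The libraries of these 3 genes did not overlap between the conditions, but neither did those of uncalled genes such as *RELA* (0.07, FDR = 0.341). *NFKBIA* (22.6 and 21.5 CPM, then 32.1 and 31.3 CPM) and *REL* (25.8 and 29.8 CPM, then 37.1 and 39.5 CPM) differed by less than 1.5-fold, at 0.50 (FDR = 4.44e-05) and 0.45 (FDR = 7.85e-04). No gene's IFNγ effect was called different between siPDL1-1 and siNC cells: the differences ran from -0.08 for *NFKB2* to 0.34 for *RELB* on the log2 scale, with standard errors from 0.078 to 0.177 and adjusted p-values from 0.238 upward in limma. At an unadjusted p under 0.05, 3 genes passed (*RELB*, *NFKBIE* and *TNFAIP3*), and neither edgeR's quasi-likelihood test nor DESeq2 called any. No share of all genes was computed at this unadjusted p. Over all genes, 0.968% were called in this difference.

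With siPDL1-2, *TNFAIP3* was the only one of the 10 genes called after IFNγ. It went from 7.24 and 7.94 CPM to 12.6 and 12.1 CPM (log2 fold change 0.64, FDR = 2.10e-05), where 3.62% of all genes were called higher. Without replicate 1 of the unstimulated siPDL1-2 group, the value was 0.58, just under 1.5-fold, and the call was lost. *NFKBIZ* (8.65 and 8.24 CPM, then 11.2 and 9.65 CPM) and *BIRC3* (4.86 and 5.74 CPM, then 7.04 and 6.38 CPM) lay higher after IFNγ without passing, at 0.27 (FDR = 0.0358) and 0.29 (FDR = 0.0948). *NFKBIA* was 14.9 and 15.7 CPM, then 19.3 and 19.9 CPM (0.34, FDR = 0.00192). *REL* lay in the other direction, from 37.2 and 38.1 CPM to 30.3 and 25.3 CPM (-0.43, FDR = 0.00164). For each of the 10 genes, called or not, the libraries did not overlap between the conditions. No share of all genes was computed for this. *NFKB2* (0.24, FDR = 0.00819) and *RELA* (0.26, FDR = 0.00264) also passed the FDR threshold, below 1.5-fold.

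**Figure D2:**
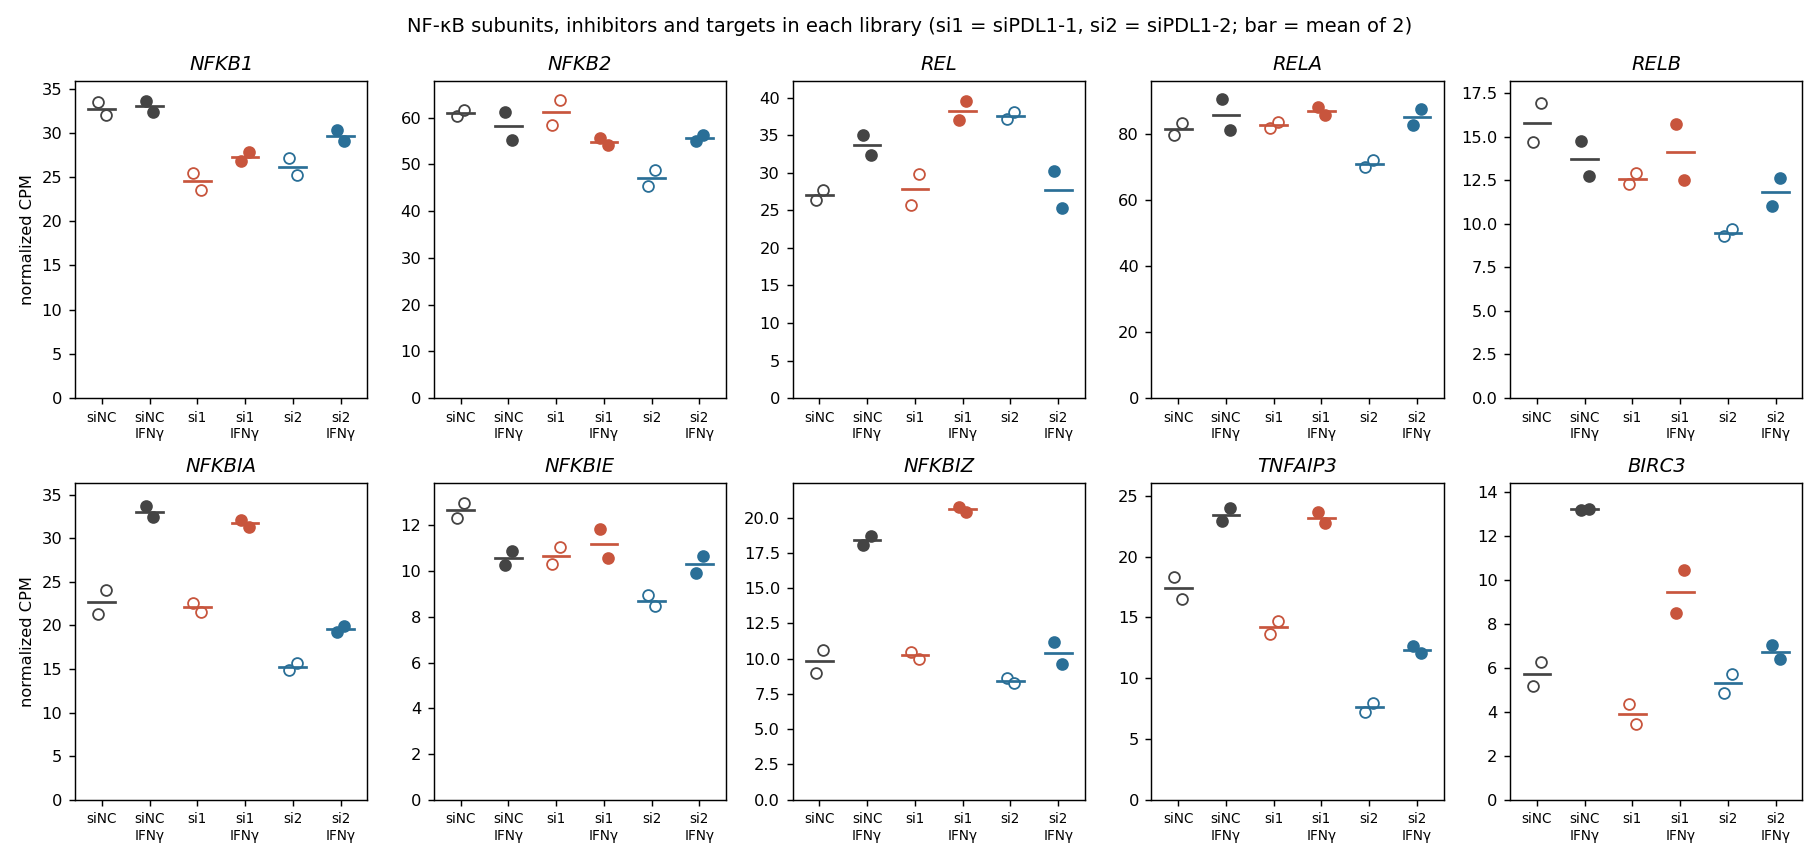
Level of each gene in each of the 12 libraries in normalized CPM (y axis from 0, own scale for each gene). Open points are unstimulated and filled points IFNγ-stimulated libraries, and bars are the means of 2. *BIRC3* and *NFKBIZ* reach 13.2 and 18.4 CPM on average after IFNγ with siNC, and 6.71 and 10.4 CPM with siPDL1-2.

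The effect of IFNγ itself differed between siPDL1-2 and siNC cells for *REL* and *BIRC3*, both in the lower direction. For *REL*, the difference of the effects was -0.73 on the log2 scale (standard error 0.120, FDR = 5.09e-04 from limma), from an effect of 0.30 with siNC and -0.43 with siPDL1-2. For *BIRC3*, it was -0.79 (standard error 0.177, FDR = 0.00399), from 1.08 and 0.29. *NFKBIZ* had a difference of -0.58 (FDR = 0.00378), which is 1.49-fold and just under the fold threshold. These 2 of 10 genes compare with 5.78% of the 17982 genes tested that were called lower in this difference. In the other direction, 1.84% of all genes and 0 of the 10 were called higher. An unadjusted p under 0.05 in limma, for which no share of all genes was computed, was passed by 4 of the 10 in this direction. These were *RELB* (0.48, FDR = 0.0308), *NFKBIE* (0.46, FDR = 0.0107), *NFKB2* (0.31, FDR = 0.0141) and *RELA* (0.19, FDR = 0.0820). The median over the 10 genes was 0.18, with 6 above 0 and 4 below, and -0.014 over all genes tested.

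The *REL* difference was called under every alternative run, with values from -0.86 to -0.61. Alternatives that only dropped the fold threshold could not remove a call. The *BIRC3* difference lost its call without unstimulated siNC replicate 1 (-0.67, FDR = 0.0217), IFNγ-stimulated siNC replicate 2 (-0.79, FDR = 0.0142), unstimulated siPDL1-2 replicate 2 (-0.69, FDR = 0.0268) or IFNγ-stimulated siPDL1-2 replicate 2 (-0.73, FDR = 0.0227). *NFKBIZ* was called without unstimulated siNC replicate 2 (-0.68), IFNγ-stimulated siNC replicate 1 (-0.60) or IFNγ-stimulated siPDL1-2 replicate 1 (-0.67). *REL* shares 5702 bases with *AC010733.1* on the same strand, which averaged 4.98 CPM against 32.0 CPM for *REL*. With IFNγ, *AC010733.1* went from 1.86 and 1.29 CPM to 4.51 and 6.25 CPM in siNC cells, the direction of *REL*, and from 2.56 and 5.25 CPM to 6.27 and 6.68 CPM in siPDL1-2 cells, the other direction from *REL*. Its own difference of the effects was -0.64 (FDR = 0.177, not called), of the same sign as that of *REL*, and its part in the *REL* value was not tested. For *TNFAIP3* (0.23, FDR = 0.143) and *NFKBIA* (-0.18, FDR = 0.186), the difference of the effects was not called.

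**Figure D3:**
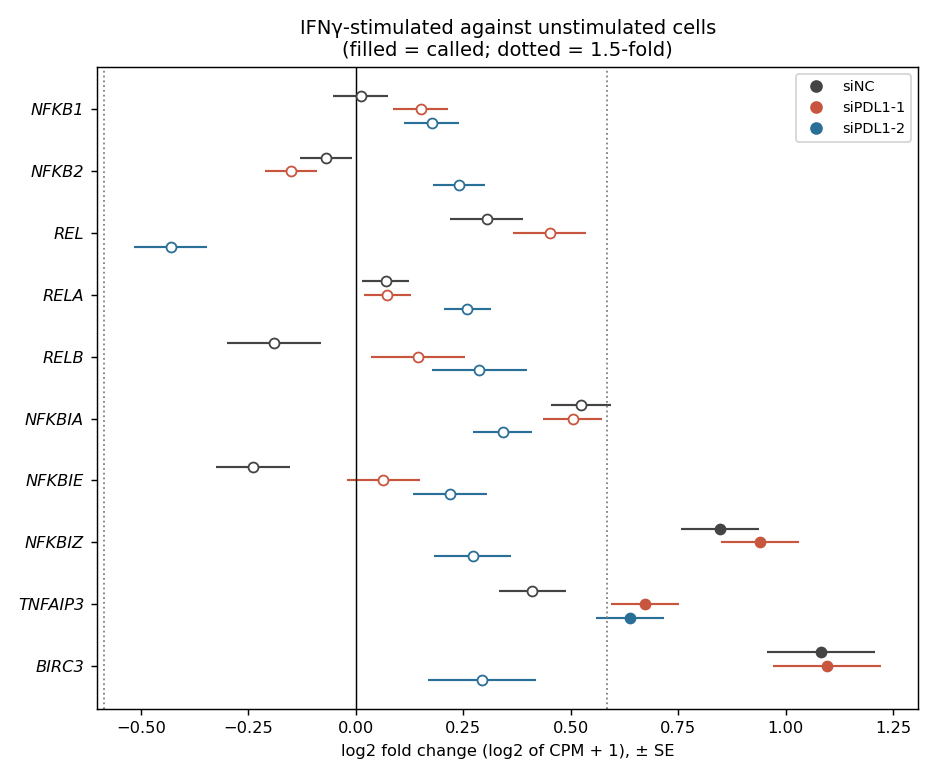
Log2 fold change (log2 of CPM + 1) of IFNγ-stimulated against unstimulated cells for each gene, with siNC, siPDL1-1 and siPDL1-2. Points are estimates from 2 libraries a group, lines ± 1 standard error, filled points are called and dotted lines mark 1.5-fold. *BIRC3* is at 1.08, 1.10 and 0.29 and *REL* at 0.30, 0.45 and -0.43.

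In unstimulated cells, siPDL1-2 lowered *TNFAIP3* and *RELB*. *TNFAIP3* was 18.3 and 16.5 CPM with siNC and 7.24 and 7.94 CPM with siPDL1-2, 2.14-fold lower on the scale of CPM + 1 (log2 fold change -1.10, standard error 0.078, FDR = 9.84e-08 from limma). *RELB* was 14.7 and 17.0 CPM with siNC and 9.30 and 9.71 CPM with siPDL1-2 (-0.68, standard error 0.110, FDR = 1.86e-04). The siPDL1-2 libraries lay below both siNC libraries for either gene. They also did so for the uncalled *NFKB1*, *NFKB2*, *RELA*, *NFKBIA*, *NFKBIE* and *NFKBIZ* (-0.19, FDR = 0.109). No share of all genes was computed for such separation. The 2 of 10 genes called compare with 1.33% of 17982 genes called lower. Without replicate 2 of the unstimulated siNC group, *RELB* was at -0.58 and was not called, which left *TNFAIP3* alone.

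Without a fold threshold, 8 of the 10 genes passed FDR < 0.01, where 28.4% of all genes did. *NFKBIA* (-0.54, FDR = 2.44e-05) and *NFKBIE* (-0.49, FDR = 3.13e-04) lay lower with siPDL1-2. *NFKBIE* was 12.3 and 13.0 CPM with siNC and 8.94 and 8.45 CPM with siPDL1-2. *NFKBIA* was called on the recovered reads, at -0.61 with edgeR's quasi-likelihood test and -0.62 with DESeq2, and in limma at -0.63 without replicate 1 of the unstimulated siNC group. Among the subunits, *NFKB2* was 45.3 and 48.7 CPM with siPDL1-2, against 60.4 and 61.6 CPM with siNC (-0.37, FDR = 2.00e-04), and *NFKB1* (-0.31) and *RELA* (-0.20) lay lower as well. *REL* was the exception, at 37.2 and 38.1 CPM against 26.4 and 27.7 CPM (0.46, FDR = 5.55e-04). *NFKBIZ* (-0.19, FDR = 0.109) and *BIRC3* (-0.09, FDR = 0.589), the genes with the largest response to IFNγ in siNC cells, did not pass. The median over the 10 genes was -0.34, and 0.028 over all genes tested.

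With siPDL1-1 in unstimulated cells, 0 of 10 genes were called by limma, against 4% of all genes. *NFKB1* passed the FDR threshold alone, at 33.4 and 32.0 CPM with siNC and 25.5 and 23.5 CPM with siPDL1-1 (log2 fold change -0.40, FDR = 2.30e-04). At an FDR under 0.05, 3 genes passed: *NFKB1*, *TNFAIP3* (-0.28, FDR = 0.0148) and *BIRC3* (-0.46, FDR = 0.0118). At an unadjusted p under 0.05, 5 genes passed. The counts at these looser thresholds are not set against a share of all genes. edgeR's quasi-likelihood test called 1 gene, *BIRC3*, at -0.63 (FDR = 0.00444), and DESeq2 called 0. The level of *TNFAIP3* differed between the siRNAs, at 13.7 and 14.7 CPM with siPDL1-1 and 7.24 and 7.94 CPM with siPDL1-2 (0.82, FDR = 3.05e-06), and it was the only one of the 10 genes called in that direct comparison, where 0.884% of all genes were called higher with siPDL1-1.

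After IFNγ, 4 of the 5 feedback genes were lower with siPDL1-2 than with siNC, and 3 of the 5 (*NFKBIA*, *NFKBIZ* and *TNFAIP3*) differed between the siRNAs. With siPDL1-2, *NFKBIA*, *NFKBIZ*, *TNFAIP3* and *BIRC3* were all lower than with siNC, and all 10 genes had a negative log2 fold change in limma, although that of *RELA*, near 0, was positive in the count tests (0.0039 in edgeR) and with DESeq2's size factors (0.0061). The median was -0.24, and -0.0073 over all genes tested. *BIRC3* was 13.2 and 13.2 CPM with siNC and 7.04 and 6.38 CPM with siPDL1-2 (log2 fold change -0.88, standard error 0.112, FDR = 5.74e-04 from limma). *TNFAIP3* was 22.9 and 24.0 CPM with siNC and 12.6 and 12.1 CPM with siPDL1-2 (-0.87, standard error 0.080, FDR = 1.00e-04). *NFKBIZ* was 18.1 and 18.7 CPM against 11.2 and 9.65 CPM (-0.77, standard error 0.092, FDR = 4.27e-04), and *NFKBIA* was 33.7 and 32.4 CPM against 19.3 and 19.9 CPM (-0.72, standard error 0.072, FDR = 1.54e-04). All siPDL1-2 libraries were below all siNC libraries for these 4 genes, and also for *REL*, *RELB* and *NFKB1*, which were not called. How many of all genes separated in this way was not computed. In the fit of the 6 IFNγ-stimulated libraries, 1.11% of 17148 genes were called lower.

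*NFKBIA* and *TNFAIP3* kept their call under all 15 alternatives, although those that only dropped the fold threshold could not remove a call. *BIRC3* lost it without IFNγ-stimulated siPDL1-2 replicate 1 (-0.95, FDR = 0.0103) or replicate 2 (-0.82, FDR = 0.0169), and *NFKBIZ* without replicate 2 of that group (-0.67, FDR = 0.0121), which left 2 of 10 genes called. The count over all genes fell as well, from 499 to 172 without replicate 1 and to 143 without replicate 2. *NFKBIZ* shares 241 bases with *NXPE3* on the same strand, a more abundant gene (71.5 against 13.0 CPM on average). *NXPE3* was 80.8 and 83.7 CPM with siNC and 68.3 and 65.4 CPM with siPDL1-2 (-0.30, FDR = 0.0106, not called), and its part in the *NFKBIZ* value was not tested. *NFKBIE*, the remaining feedback gene, was 10.3 and 10.9 CPM with siNC and 9.91 and 10.7 CPM with siPDL1-2, which overlapped (-0.036, FDR = 0.831). The subunit genes did not pass: *REL* was at -0.27 (FDR = 0.0549), *RELB* at -0.20 (FDR = 0.275), *NFKB1* at -0.15 (FDR = 0.168), *NFKB2* at -0.06 (FDR = 0.566) and *RELA* at -0.0075 (FDR = 0.955).

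With siPDL1-1 after IFNγ, 0 of 10 genes were called by limma, against 5.52% of all genes. At an FDR under 0.05, 2 passed, *BIRC3* (-0.45, FDR = 0.0129), at 8.48 and 10.4 CPM against 13.2 and 13.2 CPM with siNC, and *NFKB1* (-0.26, FDR = 0.0193), at 26.8 and 27.8 CPM against 33.6 and 32.3 CPM. The same 2 had an unadjusted p under 0.05, and neither of these looser counts is set against a share of all genes. In edgeR's quasi-likelihood test and in DESeq2, 0 were called as well. *TNFAIP3* was 23.6 and 22.7 CPM and overlapped the siNC libraries (log2 fold change -0.02, standard error 0.080). *NFKBIA* was 32.1 and 31.3 CPM (-0.06, standard error 0.072), just below the siNC libraries. The direct comparison put *NFKBIZ* 0.92, *TNFAIP3* 0.86 and *NFKBIA* 0.67 higher with siPDL1-1 than with siPDL1-2 (FDR = 9.95e-05, 5.74e-05 and 1.84e-04), where 1.73% of all genes were called higher. For *BIRC3* that difference was 0.44 and did not pass (FDR = 0.0308), nor did that of *NFKBIE* (0.11, FDR = 0.523), and for *REL* it was 0.45 (FDR = 0.00974), below 1.5-fold. The type I interferon-response list was called higher in 21 of 22 genes with siPDL1-1, where 3.76% of all genes were. With siPDL1-2 it was called higher in 2, where 499 of 17148 genes were called in either direction, 190 of them lower. The part of this list in these differences was not tested. Comparisons with siNC share the siNC libraries.

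**Figure D4:**
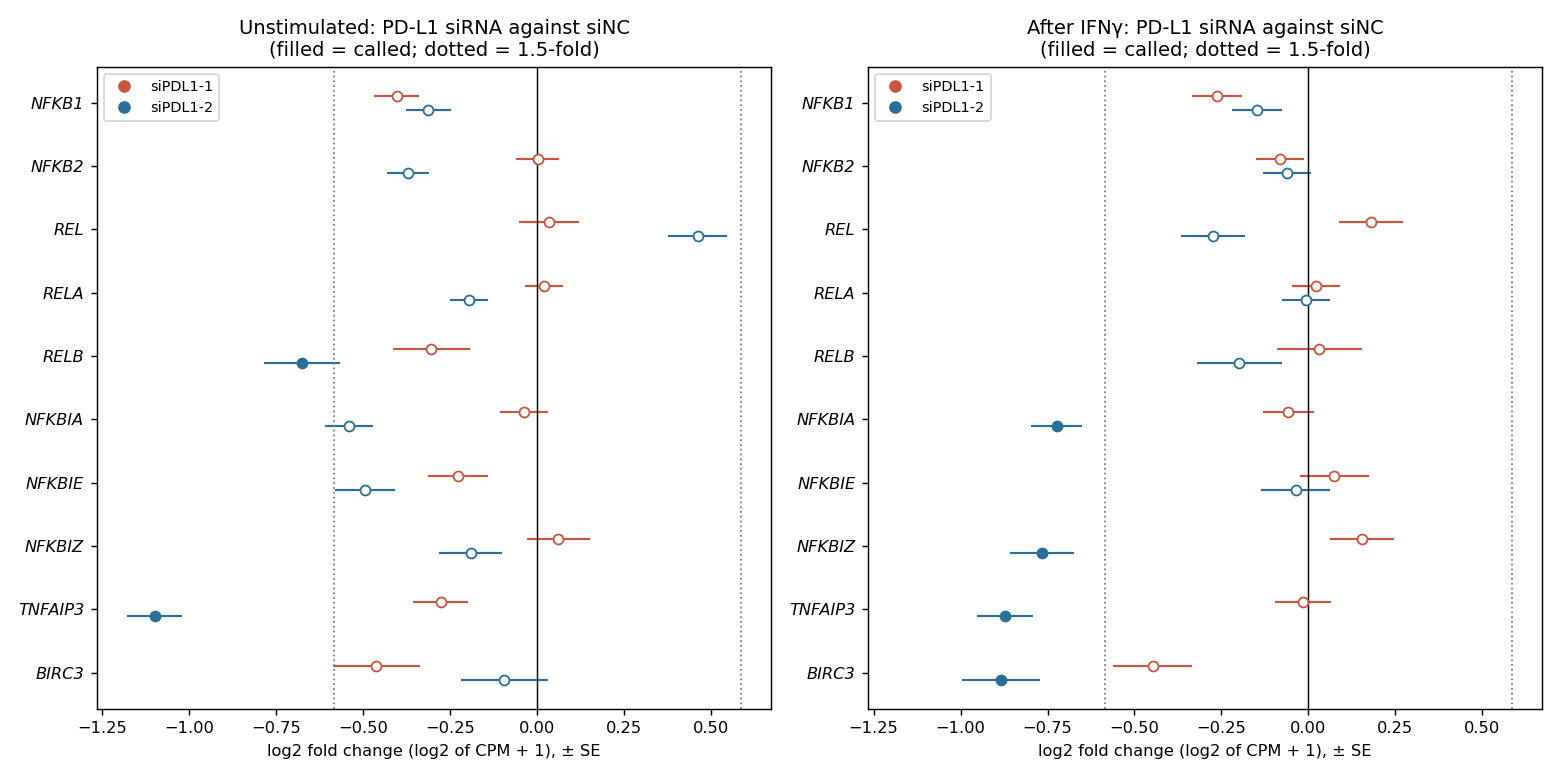
Log2 fold change (log2 of CPM + 1) of each *PD-L1* siRNA against siNC for each gene, without IFNγ (left) and after IFNγ (right). Points are estimates from 2 libraries a group, lines ± 1 standard error, filled points are called and dotted lines mark 1.5-fold. After IFNγ, *NFKBIA*, *NFKBIZ*, *TNFAIP3* and *BIRC3* lie between -0.88 and -0.72 with siPDL1-2, and with siPDL1-1 between -0.45 and 0.15.

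The rest of the pathway was taken from lists of 10 receptors, 22 adaptors and IKK-pathway genes, 17 other inhibitors and modulators, and 40 target genes. After IFNγ, siPDL1-2 lowered 3 of 29 target genes tested, where 1.11% of all genes were called lower. These 3 target genes were the neutrophil chemokines *CXCL8* (-1.10, FDR = 0.00101) and *CXCL2* (-0.78, FDR = 0.00403) and the mitochondrial superoxide dismutase *SOD2* (-0.68, FDR = 4.83e-05). Both chemokines were low. With siNC and siPDL1-2 after IFNγ, *CXCL8* averaged 3.00 and 0.866 CPM and *CXCL2* 2.53 and 1.07 CPM. The alternatives were not run for single genes of these lists. Among adaptors, *IRAK2*, a kinase of the interleukin-1 receptor pathway, fell by 0.62 (FDR = 0.00325), and 0 of 10 receptors and 0 of 17 other inhibitors were called by limma. At an unadjusted p under 0.05, 4 and 9 passed, with no share of all genes computed. The median of the target genes was -0.15, against -0.0073 over all genes.

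With siPDL1-1 after IFNγ, 3 of 29 target genes rose and 2 fell. The chemokine *CCL5* was 0.214 CPM on average with siNC and 13.1 CPM with siPDL1-1 (3.54 on the log2 scale of CPM + 1), and the cytokine *LIF* (0.74) and the protease *PLAU* (0.67) rose as well. *SOD2* (-0.91) and the transcription factor *IRF1* (-0.63) fell. Of the receptors, 3 of 10 rose: *IL1RAP* (0.81), *TLR3* (0.76) and *IL1R1* (0.62), components of interleukin-1 and double-stranded RNA sensing. *MYD88*, the adaptor of most Toll-like receptors, rose by 1.06, and *N4BP1*, an inhibitor of NF-κB signalling, by 1.35. *SOD2* was therefore called lower with both siRNAs. Over all genes, 3.76% were called higher and 1.76% lower with siPDL1-1.

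**Figure D5:**
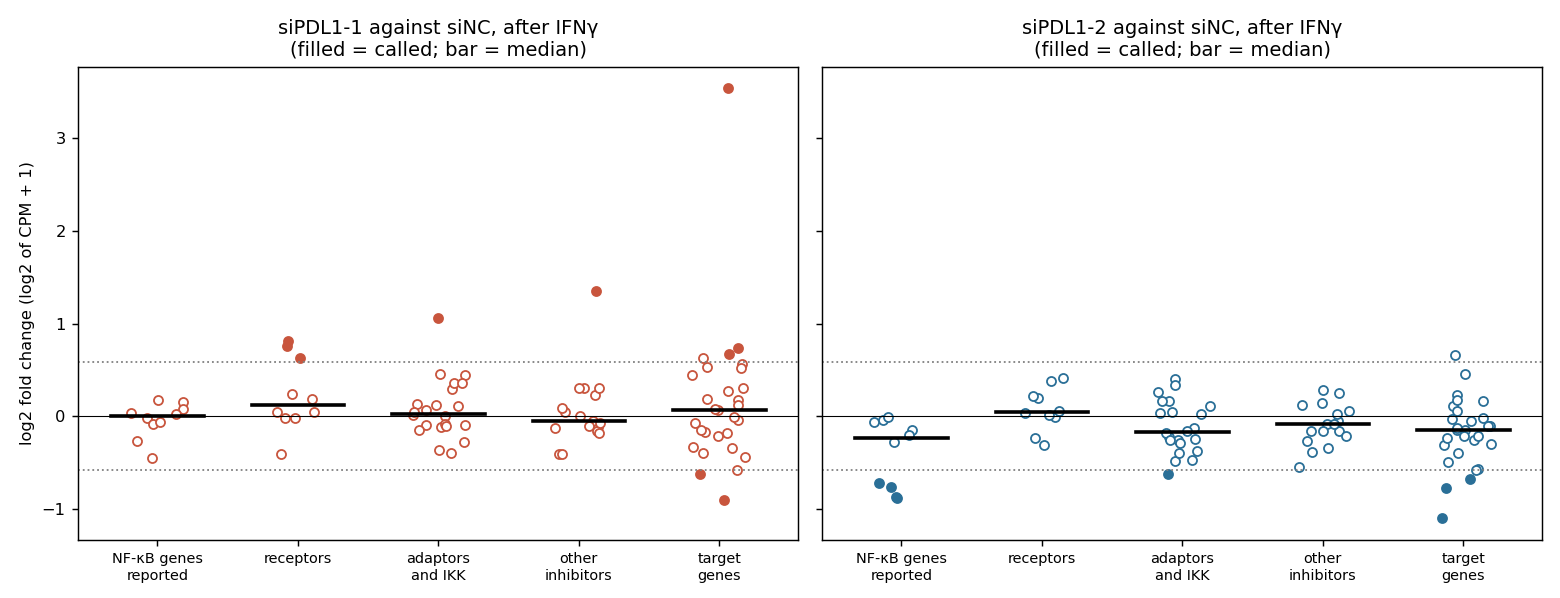
Log2 fold change (log2 of CPM + 1) against siNC after IFNγ for every tested gene of the NF-κB lists, with siPDL1-1 (left) and siPDL1-2 (right). Each point is a gene, filled points are called, black bars are medians and dotted lines mark 1.5-fold. With siPDL1-2, 4 of the 10 genes reported here, 1 adaptor and 3 target genes are called lower and none higher, while with siPDL1-1 called genes lie on both sides.

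Without IFNγ, *CXCL8*, *CXCL2* and *CXCL3* were lower with either siRNA. *CXCL8* fell by 1.67 with siPDL1-1 and by 1.88 with siPDL1-2, and *CXCL2* fell by 1.28 and 1.12. Of 31 target genes tested, 5 fell and 2 rose with siPDL1-1, and 4 fell and 3 rose with siPDL1-2. Over all genes, 1.45% were called lower and 2.55% higher with siPDL1-1, and 1.33% and 4.84% with siPDL1-2. *TNFRSF12A*, the TWEAK receptor, fell by 0.76 and 0.88, and *IL1RAP* rose by 0.70 and 1.12. With siPDL1-2, *NFKBIB*, which encodes the inhibitor IκBβ, fell by 0.86, the kinase *IRAK1* by 0.66 and the adaptor *TRAF2* by 0.61, at values of -0.48, -0.25 and -0.37 with siPDL1-1 that were below 1.5-fold.

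IFNγ in siNC cells raised 9 of 31 target genes and lowered 4. *IRF1* (4.85), the adhesion molecule *VCAM1* (3.30) and the cytokine *IL32* (2.14) had the largest increases, and *CXCL8* (-1.09), *LIF* (-1.01) and *CXCL3* (-0.84) the largest decreases. Of the receptors, 4 of 10 rose, among them *TLR3* (3.02) and *TLR4* (1.27). *CYLD*, a deubiquitinase that restrains NF-κB, was the only called gene of the 17 other inhibitors (1.04), and *RBCK1* (0.72), a subunit of the linear ubiquitin ligase, and *MYD88* (0.62) were called among the adaptors. Over all genes, 6.67% were called higher and 1.45% lower.

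The difference of the IFNγ effects between siPDL1-2 and siNC was called in both directions within these lists. Over all genes, 5.78% were called lower and 1.84% higher in this difference. Of the target genes, 5 of 31 were called lower, among them *VCAM1* (-0.91), *RCAN1* (-0.85) and the caspase inhibitor *XIAP* (-0.78), and 2 higher, *LIF* (0.75) and *IER3* (0.59). Of the 22 adaptors, *BIRC2* (-0.77), which encodes cIAP1 and adjoins *BIRC3* on chromosome 11, and *TAB3* (-0.60) were called lower and *TRADD* (0.73), the adaptor of the TNF receptor, higher. The receptor *IL1RAP* (-0.74) was called lower, and *NFKBIB* (0.70) was the only other inhibitor called, in the higher direction.

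The 10 genes did not vary as a block over the 12 libraries. Pearson's r of log2(CPM + 1) ran from -0.58 to 0.96 over the 45 pairs, with a median of 0.46. The 6 pairs among *NFKBIA*, *NFKBIZ*, *TNFAIP3* and *BIRC3* had r from 0.65 to 0.96, but these 4 genes were picked out because they were called lower together in the same libraries, so a high r follows from that choice. Among 11588 genes above 5 CPM, the pattern of *NFKBIA* was most like those of *SORD* (r = 0.985), *MAP3K14* (0.972) and *TNFAIP3* itself (0.961), and that of *TNFAIP3* was also most like *SORD* (0.980). *BIRC3* was most like *RALA* (0.986) and *RIPK2* (0.973), and *NFKBIZ* most like *SPTLC2* (0.977). Among the subunits, *REL* was most like *PIK3R1* (0.964), *RELA* like *ISOC2* (0.964) and *RELB* like *GRWD1* (0.962), and the top values for *NFKB1* (*MED30*, 0.949), *NFKB2* (*GIT1*, 0.939) and *NFKBIE* (*MON1A*, 0.938) were lower. These correlations describe 12 libraries from 6 groups, with group differences included.

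The widest range over the 12 libraries was that of *BIRC3*, from 3.44 CPM in an unstimulated siPDL1-1 library to 13.2 CPM in an IFNγ-stimulated siNC library, 3.85-fold. *TNFAIP3* followed, from 7.24 to 24.0 CPM (3.31-fold), then *NFKBIZ* (2.52-fold) and *NFKBIA* (2.27-fold). *RELA* varied least, from 70.1 to 90.5 CPM (1.29-fold). *NFKB2* (1.41-fold) and *NFKB1* (1.43-fold) were next, and *REL*, *RELB* and *NFKBIE* lay between 1.54-fold and 1.82-fold. An unstimulated siPDL1-2 library held the lowest level of *NFKB2*, *RELA*, *RELB*, *NFKBIA*, *NFKBIE*, *NFKBIZ* and *TNFAIP3*.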

How the data were processed

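RNA-seq of 12 U251 libraries, 2 for each of 6 conditions taken from the sample labels, was used as deposited. Per the methods, the authors used CLC Genomics Workbench 22.0.2 to trim reads (quality limit 0.05), map them (GRCh38, Ensembl genes) and count both strands. The deposited values are the authors' normalized CPM (a signal, not raw counts). Every value was a whole multiple of 1 read (tolerance 0.01 read), and the reads so recovered served for filtering and count tests. The authors' scaling factors ran from 0.959 to 1.036.

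Log2(CPM + 1) was tested with limma 3.58.1 (trend, robust) after edgeR 4.0.16's filterByExpr (minimum count 10, minimum total 15) in R 4.3.3. Knockdown effects after IFNγ were fitted on the 6 stimulated libraries (17148 genes), the other comparisons on all 12 (17982 genes). The p-values were adjusted by Benjamini-Hochberg over all genes tested, and calls used the study's FDR < 0.01 and fold > 1.5. The pseudocount understates changes of low genes. The scripts were tested on simulated data. Replicates are independent experiments per the methods and were not duplicates (mean chi-square between their recovered reads 1.85 to 7.76, r of at least 0.995).

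The 10 genes and the gene lists were chosen with earlier results of these data known. From each list, the called genes with the largest changes were named (at most 3 a direction, mean of at least 1 CPM), and for each of the 10 genes the 3 most correlated genes over the 12 libraries above 5 CPM were ranked. Genes added to these after their values were seen are *AC010733.1* and *NXPE3*, which overlap *REL* and *NFKBIZ*. Exon lengths are from GENCODE 44 and promoters from RefSeq. The alternatives were edgeR's quasi-likelihood test and DESeq2 1.42.0 on the recovered reads, DESeq2's size factors, a pseudocount of 0.1, no filter, a replicate block, fits on other sets of libraries, leaving out each library, and FDR < 0.05 at any fold. FDR < 0.01 at any fold was chosen after seeing the data. Counts at an unadjusted p under 0.05, and statements that libraries did not overlap, are given without a share of all genes. The samples' labels and the paper name different extraction kits and instruments.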

Additional observations from a re-analysis of the deposited data

Results flagged for a closer look

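The effect of IFNγ differed between siPDL1-2 and siNC cells for 2 of the 10 genes, by the test of the difference itself. For *REL*, the difference was -0.73 on the log2 scale (FDR = 5.09e-04 from limma), with IFNγ-stimulated libraries above the unstimulated ones in siNC cells and below them in siPDL1-2 cells. For *BIRC3*, it was -0.79 (FDR = 0.00399), with the stimulated libraries above the unstimulated ones in both. The *BIRC3* call was lost with no filter and when some single libraries were left out, while that of *REL* was kept. Groups of 2 libraries are too small to look for single libraries far from the rest.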

How the results depend on the processing

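The replicate numbers did not pair the libraries (r of deviations from -0.187 to 0.252, 2 of 15 pairs over 0.1), and the replicate block left every count over the 10 genes as it was. Groups of 2 limit every result: leaving out 1 library gave 1 to 3 called genes for siPDL1-2 without IFNγ, 2 to 4 after IFNγ, 0 to 1 for IFNγ in siPDL1-2 cells and 1 to 3 for the difference of the IFNγ effects between siPDL1-2 and siNC, where no filter gave 1. Over all genes, that difference went from 1370 to 890 without IFNγ-stimulated siPDL1-2 replicate 2, and the comparison of the siRNAs after IFNγ from 362 to 224 and 213 without either library of that group. For siPDL1-1 without IFNγ, the quasi-likelihood test called 1. DESeq2's size factors shifted the median gene by at most 0.040 on the log2 scale. *NFKBIZ* passed the fold threshold in the difference of IFNγ effects with a pseudocount of 0.1 (-0.61). The cause of these changes was not tested. Leaving out a library also lowers the number of samples, and leaving out the filter raises the number of genes tested.

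Without a fold threshold, FDR < 0.05 gave 6, 5 and 6 of the 10 genes for IFNγ in siNC, siPDL1-1 and siPDL1-2 cells, 3, 8 and 9 without IFNγ for siPDL1-1, siPDL1-2 and the comparison of the siRNAs, 2 and 5 after IFNγ for siPDL1-1 and the comparison of the siRNAs, and 6 for the difference of the IFNγ effects with siPDL1-2. FDR < 0.01 at any fold gave 4, 5 and 5 for IFNγ and 1, 8 and 5 without IFNγ, in the same order. Over all genes these settings gave 572 to 7338 and 293 to 5107, depending on the comparison. These counts over the 10 genes are not set against the share of all genes in each comparison. They show only how the number of calls depends on the threshold.

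The results that changed sign were near 0 and uncalled. With the quasi-likelihood test, DESeq2 and DESeq2's size factors, *NFKB1* was -0.011, -0.021 and -0.023 for IFNγ in siNC cells, *NFKB2* -0.034, -0.022 and -0.023 and *RELA* -0.020, -0.0071 and -0.0056 for siPDL1-1 without IFNγ, *RELA* 0.0039, 0.0062 and 0.0061 for siPDL1-2 after IFNγ, and *NFKBIA* 0.036, 0.033 and 0.020 for the difference of IFNγ effects between siPDL1-1 and siNC. *TNFAIP3* was 0.00022 for siPDL1-1 after IFNγ with the quasi-likelihood test. The following ranges are those of leaving out 1 library. For IFNγ in siNC cells, *NFKB1* ranged from -0.0201 to 0.0422, *RELA* from -0.00780 to 0.15 and *NFKB2* from -0.14 to 0.00299. For IFNγ in siPDL1-1 cells, *RELB* ranged from -0.00827 to 0.30 and *NFKBIE* from -0.00954 to 0.14. For siPDL1-1 against siNC without IFNγ, *NFKB2* ranged from -0.0588 to 0.0613, *REL* from -0.0683 to 0.14, *RELA* from -0.0119 to 0.050, *NFKBIZ* from -0.0462 to 0.17 and *NFKBIA* from -0.12 to 0.0453. For siPDL1-2 against siNC without IFNγ, *BIRC3* ranged from -0.21 to 0.0222. For siPDL1-1 against siNC after IFNγ, *RELA* ranged from -0.0550 to 0.10, *RELB* from -0.12 to 0.19 and *TNFAIP3* from -0.0478 to 0.0163. For siPDL1-2 against siNC after IFNγ, *NFKB2* ranged from -0.13 to 0.00995, *RELA* from -0.0852 to 0.0702 and *NFKBIE* from -0.0853 to 0.0127. Between the siRNAs after IFNγ, *RELA* ranged from -0.0108 to 0.0711. For the difference of IFNγ effects between siPDL1-1 and siNC, *NFKBIA* ranged from -0.10 to 0.0644, *RELA* from -0.0741 to 0.0813, *NFKBIZ* from -0.0127 to 0.20 and *BIRC3* from -0.12 to 0.15. All other values of the 10 genes kept their direction under every alternative run.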
